A study of Mus musculus with 24 samples.

Results

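The measurement described here is the difference between 2 mouse strains in how their pancreatic islets changed on a high-fat diet. It was formed for every gene as the log2 change from chow to high-fat diet in C57BLKs/J (BLKS) mice minus the same change in C57BL6/J (BL6) mice, and it used 16 of the 24 arrays of the series. A positive value means that the gene went higher, or less far down, in BLKS islets than in BL6 islets. The 4 groups of the contrast were BL6 on chow, BL6 on high-fat diet, BLKS on chow and BLKS on high-fat diet, with 4 male mice and 4 single-colour arrays in each. Chow supplied 18% of kcal from fat and the high-fat diet 42%, feeding began at an age of 8 weeks, and it is given as 12 weeks in the sample labels and 16 weeks in the series' design text. The other 8 arrays are from mice of both strains given pioglitazone, a PPAR-gamma agonist, in the same diet (140 mg per kg of diet). They did not enter the contrast itself. They entered the estimate of the spread between mice, the filter on dim probes and the choice of each gene's brightest probe. The mice carried no engineered allele according to the labels, so the strains differ by their inbred genomes.

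Islets are clusters of endocrine cells in which insulin-secreting beta cells predominate, with glucagon-secreting alpha cells and smaller populations beside them. When a high-fat diet raises the demand for insulin, islets of many mouse strains enlarge and secrete more, in part through division of beta cells, and strains differ in how far they do so. The BLKS background is known for giving way to diabetes under insulin demand that BL6 mice withstand. Division of beta cells is held back by inhibitors of cyclin-dependent kinases, and secretion is tuned by receptors and by transcription factors that respond to membrane depolarisation and calcium. The series asks how the strains diverge in their compensation for the diet, and the contrast of diet changes addresses that question gene by gene.

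A level is throughout the log2 intensity of a gene's brightest probe minus that of its array's 75th percentile. The percentile ranged from 265 to 386.6 intensity units over the 16 arrays, and between 51.5% and 58.3% of probes on an array were well above background. The endocrine identity of the samples was clear: levels ran from 9.65 to 10.28 for Ins1, from 8.93 to 9.56 for Ins2 and from 8.97 to 9.52 for Gcg. The highest level of each of these hormone genes was in BLKS chow mouse 1, whose percentile was 268.6. The lowest Ins1 and Ins2 levels were in BLKS high-fat mouse 3, at 386.6, and the lowest Gcg level in BLKS high-fat mouse 4, at 367.9. BL6 high-fat mouse 1, at 265, went the other way for Gcg, with the lowest level in BL6. No spot other than controls was flagged as saturated. Acinar, lymphocyte and macrophage markers were also present and varied between mice, as given below with the genes they bear on. All 8 BL6 arrays of the contrast lay on 1 slide. The BLKS chow arrays lay on 2 slides with BL6 pioglitazone arrays, mouse 3 apart from the others and scanned on another day. The BLKS high-fat arrays lay on a further slide, together with the BLKS pioglitazone arrays. Diet and slide therefore cannot be told apart in BLKS, and neither can a strain difference in diet change and a slide difference. Islets are a mixture, and in such bulk samples fewer cells of a type and less RNA per cell cannot be told apart. The labels number the mice but give no isolation or extraction batch, so p-values measure the spread between these arrays, part of which may be technical.

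The noncoding RNA Malat1 was read by several probes of different sequence, and its strain difference did not pass the test. Malat1, for which NEAT2 is an older name, is an abundant long noncoding RNA retained in nuclear speckles. The 3 probe sequences described here, which passed the filter on dim signals, cover 120 bases of the minus strand at mm9 chr19:5795713-5795832. They are shown 5′ to 3′ because the amount of shared sequence decides how far they count as separate readings. Capitals mark bases that also lie in another of the 3 probes.
NEAT2, upstream probe: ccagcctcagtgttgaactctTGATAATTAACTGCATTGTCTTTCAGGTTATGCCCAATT
Transcribed-region probe: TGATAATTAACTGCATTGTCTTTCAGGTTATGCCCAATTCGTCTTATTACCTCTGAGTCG
Malat1 and NEAT2 downstream probe: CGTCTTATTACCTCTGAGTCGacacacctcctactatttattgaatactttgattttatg
The last sequence is on the array under both names, so the Malat1 and NEAT2 results per gene come from separate probes of 1 sequence. The transcribed-region probe is made up of 39 bases of its upstream neighbour and 21 bases of its downstream neighbour, and these neighbours share no base with each other.

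Under the Malat1 name the levels were 2.98, 2.37, 2.28 and 1.97 in BL6 chow mice 1 to 4 and 1.70, 1.21, 0.61 and 1.08 in BL6 high-fat mice 1 to 4. In BLKS they were 4.39, 3.94, 3.74 and 4.26 on chow and 4.73, 4.30, 4.53 and 4.36 on high-fat diet. Every BL6 high-fat mouse thus lay below every BL6 chow mouse, while the BLKS groups overlapped and both lay above all BL6 mice. The strain difference in diet change was 1.65 ± 0.33 (SE) for this probe, 1.68 ± 0.31 for the transcribed-region probe and 1.75 ± 0.34 for the upstream NEAT2 probe. These 3 probes gave diet changes of -1.25 to -1.28 in BL6 and of 0.40 to 0.47 in BLKS, and the NEAT2 probe of the downstream sequence gave -1.32 and 0.39. The strain difference had a limma adjusted p of 0.13 for both names, above the threshold of 0.05, and in BL6 the diet change passed for NEAT2 (limma adjusted p = 0.046) but not for the Malat1 probe of identical sequence (0.065). Both names passed with normexp background correction and quantile normalization (adjusted p of 0.031 for Malat1 and 0.025 for NEAT2) and with the mouse number as a block (0.038 and 0.041), as did the transcribed-region probe (0.025 and 0.038).

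Over all genes, no strain difference in diet change passed an adjusted p of 0.05 with limma: the count was 0 of 22968 genes (0%), and the smallest adjusted p was 0.082. At an unadjusted p under 0.05 there were 1947 genes, 8.48% of those tested, of which 844 (3.67%) were higher and 1103 (4.8%) lower in the BLKS response. Least squares without moderation also gave 0 genes after adjustment, with 1995 at an unadjusted p under 0.05. Other settings gave between 0 and 11 genes, and the calls among named genes stand with those genes below. The others were 6430411K18Rik and Atad3a with normexp background correction and quantile normalization, D030063E12 in the fit of the 16 arrays alone, ENSMUST00000103452 without the arrays of high lymphocyte markers and the unnamed probe A_55_P2092282 without BLKS chow mouse 4. These 5 were chosen for naming after their values were seen. Diet changed 10 genes in BL6 (0.0435%; 4 higher, 6 lower) and 18 in BLKS (0.0784%; 4 higher, 14 lower) by the adjusted test, and none was called in both. The 10 in BL6 include NEAT2 and the transcribed-region probe, which overlap in sequence. Normexp and quantile normalization gave 8 higher and 7 lower in BL6 and 23 higher and 43 lower in BLKS, and quantile normalization alone gave 9 higher and 13 lower in BLKS. At an unadjusted p under 0.05 the shares were 5.46% in BL6 and 9.2% in BLKS. Both adjusted counts rested on few arrays: leaving out 1 array gave 4 to 18 in BL6 and 2 to 23 in BLKS, and leaving out the arrays of high lymphocyte markers, named below, gave 0 in BL6 (1629 unadjusted, with limma) and 2 in BLKS. With the acinar marker score as a covariate the counts were 6 in BL6 and 0 in BLKS (1674 unadjusted, with limma). Across genes the 2 diet changes had a Pearson r of 0.06 (22968 genes of the same arrays), and of 0.01 without acinar markers. Spread between arrays lowers such an r, and the median SE of a strain difference was 0.21. The low r therefore does not show that the strains responded in unrelated ways. Of the genes tested, 53.5% had diet values of opposite sign in the strains, and of the 1947 at an unadjusted p under 0.05 this held for 1817 (93.3%), which a test of the difference favours. Among these, 1024 were up in BL6 and down in BLKS and 793 the reverse.

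**Figure D1:**
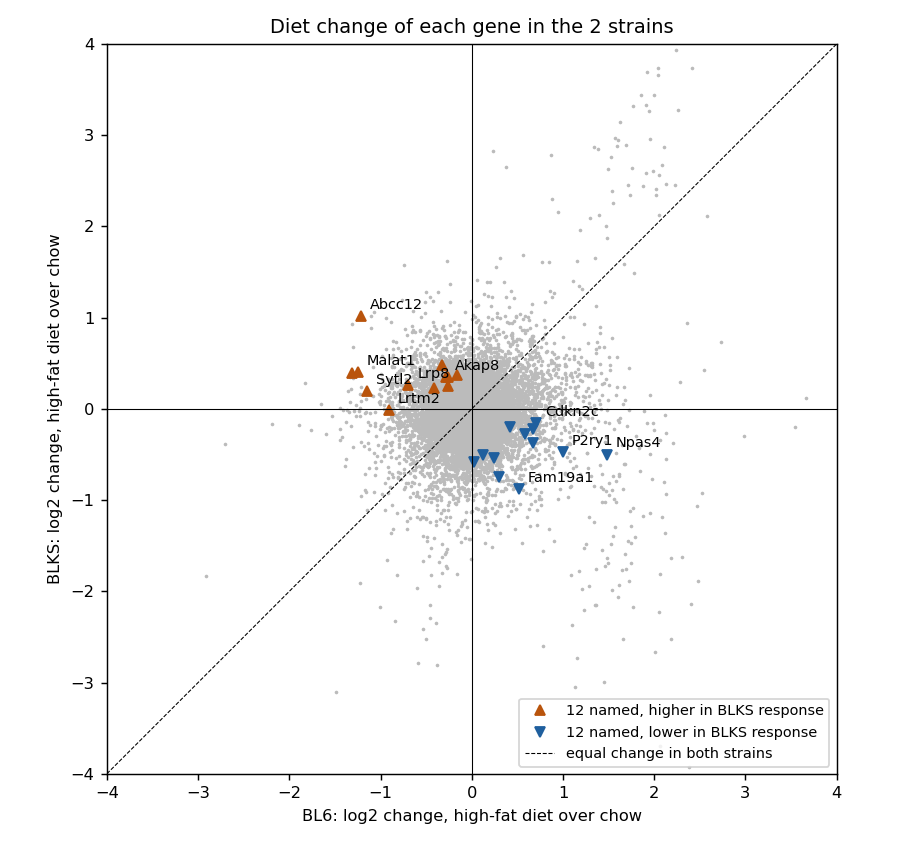
Log2 change from chow to high-fat diet in BL6 (horizontal) and BLKS (vertical) for 22965 genes as grey points, with 3 genes beyond the axes. Triangles are the 12 genes of lowest p in each direction of the strain difference, which lie away from the dashed line of equal change, and the cloud as a whole shows no shared slope apart from a stream at the upper right.

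The named genes below are the 12 of lowest p in each direction, since none passed, with clone and predicted-gene names left out. Clone-type names made up 30 of the 60 features of lowest p. All 24 kept the sign of their difference with each of the 16 arrays left out. Malat1 and NEAT2, read by probes of the same sequence, are counted separately in what follows. The high-fat mice lay wholly on one side of the chow mice in BL6 for 18 of the 24 and in BLKS for 13, beside 4.86% and 5.8% of all genes. In 7 of the 24 both strains were separated in this way and in opposite directions, as in 43 of all 22968 genes (0.187%), and since the 24 were chosen on this contrast their count only describes them.

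Cdkn2c had the lowest p of all. It encodes an INK4 protein that binds Cdk4 and Cdk6 and holds cells before DNA replication (probe at mm9 chr4:109333508-109333567, minus strand). Its level was -0.73, -0.85, -0.55 and -0.63 in BL6 chow mice and -0.08, 0.06, 0.04 and 0.05 in BL6 high-fat mice. Among BLKS mice they were -0.95, -0.91, -0.86 and -0.98 on chow and -1.44, -1.04, -0.95 and -0.89 on high-fat diet. The diet groups were fully apart in BL6, where the gene rose by 0.71 (adjusted p = 0.0057), and overlapped in BLKS at a change of -0.16. The strain difference was -0.86 ± 0.14 (SE; limma adjusted p = 0.082), and it passed with quantile normalization, alone (adjusted p = 0.03) or after normexp background correction (adjusted p = 0.014), in a range of 0.014 to 0.24 over 33 settings.

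Of the 21 measured inhibitors and checkpoint genes, 12 had strain differences below 0 and 9 above, and the 4 of lowest p were below 0. Cdkn1a, which blocks several cyclin-dependent kinases, stood at 0.85, 0.65, 0.89 and 0.82 in BL6 chow mice and 1.57, 1.46, 1.20 and 1.59 in BL6 high-fat mice. In BLKS its level was 3.47, 3.23, 3.56 and 3.38 on chow and 3.17, 3.35, 2.72 and 3.35 on high-fat diet. The BL6 groups did not overlap, the BLKS groups did, and all BLKS mice lay above all BL6 mice. Its strain difference was -0.91 ± 0.24 (adjusted p = 0.23), but a second, dimmer probe of the gene gave -0.13, and the mean of the probes -0.52. For Cdkn2a, which encodes the INK4 and ARF proteins linked to ageing of beta cells, the difference was -1.11 ± 0.34 (adjusted p = 0.31), and -0.35 with normexp and quantile normalization. Its neighbour Cdkn2b, another INK4 gene, gave -0.39 ± 0.16. Of the 21 genes on the list, 4 were lower at an unadjusted p under 0.05 and 0 higher, beside backgrounds of 4.8% and 3.67%. The list's median difference was -0.10, against -0.02 for all genes, and -0.03 to -0.19 as each array was left out.

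Genes of cell division had large spread between mice. Mitosis and chromosome segregation genes, which are transcribed shortly before cells divide, had a median diet change of 0.77 in BL6 and 0.12 in BLKS over 52 measured genes. Their median strain difference was -0.68, with 42 of 52 below 0 as against 52.8% of all genes. Yet only Prc1 reached an unadjusted p under 0.05, beside 8.48% of all genes. Prc1, which bundles microtubules at the midzone of dividing cells, was at -1.31, -1.32, -0.60 and -0.57 in BL6 chow mice and -0.30, 0.28, 0.08 and -0.03 in BL6 high-fat mice. The BLKS values were -0.42, -0.64, -0.45 and 0.18 on chow and -0.95, -0.39, -0.20 and -0.17 on high-fat diet. The BL6 groups were apart and the BLKS groups overlapped, at a strain difference of -1.05 ± 0.44 (adjusted p = 0.51). Mki67, the gene of the proliferation marker Ki-67, differed by -1.17 ± 1.16 (adjusted p = 0.82), an error as large as the value.

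Lymphocyte markers were high in some of these mice. The mean level of the mitosis list was -2.70, -2.59, -1.80 and -2.05 in BL6 chow mice, -2.07, -1.48, -1.48 and -1.05 in BL6 high-fat mice, -2.89, -2.08, -2.26 and -2.40 in BLKS chow mice and -3.00, -2.80, -0.82 and -2.43 in BLKS high-fat mice. BLKS high-fat mouse 3 stood above the other 3 of its group, and its lymphocyte score of 1.19 and that of BL6 high-fat mouse 4, at 1.17, were the highest of the 16. Without BLKS high-fat mouse 3 the list's median strain difference was -1.12, and without BL6 high-fat mouse 4 it was -0.49. Without the 5 arrays of high lymphocyte score, more than 1 above the median of all 24 (BL6 chow mouse 3, BL6 high-fat mouse 4, BLKS chow mice 2 and 4, BLKS high-fat mouse 3) and the 3 such pioglitazone arrays it was -0.96, from diet changes of 0.81 in BL6 and -0.12 in BLKS. The list's median was thus below 0 with and without those arrays, and the part of lymphocytes in it was not tested further.

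Cyclins and replication genes had smaller median differences. Ccne1, the cyclin that starts replication with Cdk2, was at 0.28, 0.33, 0.44 and 0.39 in BL6 chow mice and 1.14, 0.98, 0.65 and 1.21 in BL6 high-fat mice. In BLKS the chow mice were at 0.63, 0.36, 0.41 and 0.01 and the high-fat mice at 0.13, 0.33, 0.44 and 0.19. Only the BL6 groups were apart, and the strain difference was -0.71 ± 0.24 (adjusted p = 0.37), with -1.08 ± 0.47 from a far dimmer probe. E2f1, the transcription factor that switches on replication genes, differed by -0.58 ± 0.17 (adjusted p = 0.29), and Ccnd2, the main D-type cyclin of mouse beta cells, by -0.41 ± 0.17. The 32 measured replication genes had a median difference of -0.08, with diet changes of 0.17 in BL6 and 0.12 in BLKS, and the 15 cyclins and kinases one of -0.16. Without BLKS high-fat mouse 3 these medians were -0.27 and -0.37, and as each array was left out they ran from -0.27 to 0.05, highest without BLKS high-fat mouse 4, and from -0.37 to -0.07.

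**Figure D2:**
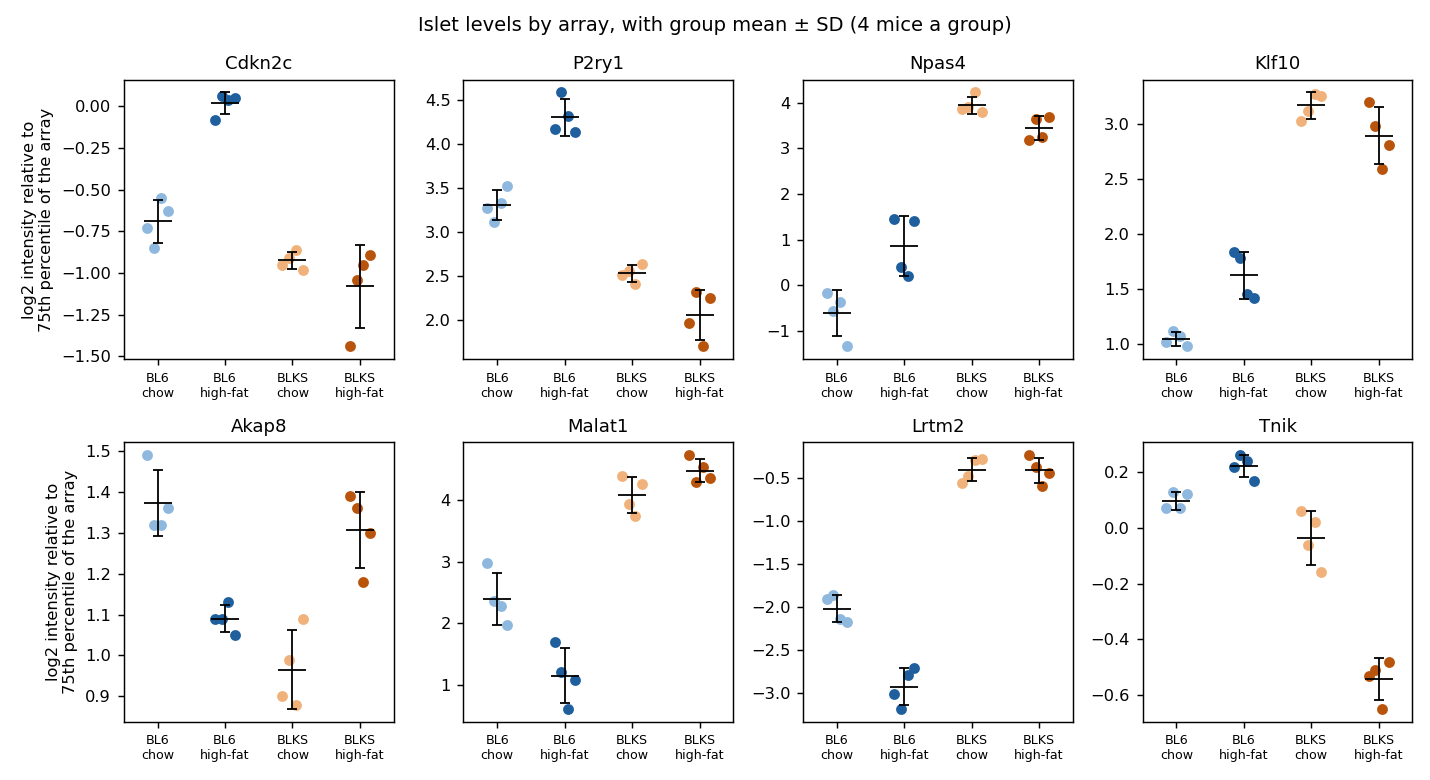
Levels of 8 genes on each of the 16 arrays (points; vertical axis log2 intensity relative to the array's 75th percentile, each panel with its own scale), with the mean and SD of 4 mice per group in black. In the upper row the BL6 high-fat mice lie above the BL6 chow mice and the BLKS high-fat mice do not, while Akap8 and Tnik part in both strains and Malat1 and Lrtm2 in BL6.

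P2ry1 had the lowest p of the named receptor genes. It is a G protein-coupled receptor for ADP, which is released with insulin granules, and couples to calcium release (probe at mm9 chr3:60812600-60812659, plus strand). Levels were 3.27, 3.11, 3.33 and 3.53 in BL6 chow mice and 4.17, 4.59, 4.32 and 4.14 in BL6 high-fat mice. In BLKS they were 2.51, 2.56, 2.41 and 2.64 on chow and 1.96, 2.32, 1.70 and 2.25 on high-fat diet. The 4 groups did not overlap anywhere: high-fat mice were higher in BL6 and lower in BLKS. The strain difference was -1.47 ± 0.29 (SE; limma adjusted p = 0.13), from 1.00 in BL6 and -0.47 in BLKS, and it passed in the fit of the 16 arrays alone (adjusted p = 0.046) and with normexp and quantile normalization (adjusted p = 0.025). Lrp8, a receptor for reelin and apolipoprotein E, went the other way at 0.95 ± 0.23 (adjusted p = 0.22), with 0.84 from a second probe. Itpr2, a calcium release channel of the endoplasmic reticulum opened downstream of such receptors, differed by -0.50 ± 0.14 (adjusted p = 0.26).

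Signalling proteins of lowest p included Akap8 and Tnik. Akap8 is a nuclear anchoring protein for protein kinase A, and its level was 1.49, 1.32, 1.32 and 1.36 in BL6 chow mice and 1.09, 1.09, 1.13 and 1.05 in BL6 high-fat mice. In BLKS it was 0.90, 0.99, 0.88 and 1.09 on chow and 1.39, 1.36, 1.18 and 1.30 on high-fat diet. The order of the diets was thus reversed between the strains with no overlap in either. The difference was 0.63 ± 0.11 (adjusted p = 0.082), and it passed with quantile normalization (adjusted p = 0.03), with normexp before it (adjusted p = 0.029) and with the mouse number as a block (adjusted p = 0.041).

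Tnik, a Ste20-type kinase of the Wnt pathway, was at 0.07, 0.13, 0.07 and 0.12 in BL6 chow mice and 0.22, 0.26, 0.24 and 0.17 in BL6 high-fat mice. BLKS levels were 0.06, -0.06, 0.02 and -0.16 on chow and -0.53, -0.51, -0.65 and -0.48 on high-fat diet. It fell in BLKS by 0.51 (adjusted p = 0.032), and the strain difference of -0.63 ± 0.13 had an adjusted p of 0.13 (0.046 with the 16 arrays alone). Dkk2, a secreted modulator of Wnt receptors, also fell in BLKS and differed between the strains by -0.90 ± 0.27 (adjusted p = 0.31), or by -0.37 with normexp and quantile normalization. Kcp, a secreted regulator of BMP signals, and Fam19a1, now named Tafa1, a secreted chemokine-like protein, differed by -1.05 ± 0.23 and -1.40 ± 0.29. With normexp and quantile normalization these were -0.34 and -0.88, and Fam19a1 passed in the fit of the 16 arrays alone (adjusted p = 0.046).

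Transcription factors that respond to cell activity had strain differences of opposite sign. Npas4, induced by depolarisation and calcium, was at -0.17, -0.57, -0.36 and -1.34 in BL6 chow mice and 1.46, 0.40, 0.20 and 1.41 in BL6 high-fat mice. In BLKS its level was 3.86, 3.90, 4.23 and 3.79 on chow and 3.18, 3.64, 3.25 and 3.70 on high-fat diet. Diet groups were apart in both strains, in opposite directions, and all BLKS mice lay above all BL6 mice. The strain difference was -1.98 ± 0.41 (limma adjusted p = 0.14, and from 0.078 to 0.36 over 33 settings), from 1.48 in BL6 and -0.50 in BLKS.

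Egr1 and Fos, which are switched on within minutes by growth factors and by tissue handling, had strain differences of the opposite sign. Egr1 was at 3.44, 2.55, 2.16 and 1.93 in BL6 chow mice and 1.21, 1.39, 0.30 and 0.15 in BL6 high-fat mice. Among BLKS mice they were 6.08, 6.07, 6.19 and 6.30 on chow and 6.40, 5.67, 5.94 and 5.71 on high-fat diet. Its fall in BL6 passed (adjusted p = 0.028), the BLKS groups overlapped, and the strain difference was 1.53 ± 0.43 (adjusted p = 0.27). For Fos, a subunit of the AP-1 factor, it was 2.01 ± 0.74 (adjusted p = 0.43).

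Klf10, a TGF-beta-inducible repressor, gave -0.86 ± 0.19 (adjusted p = 0.18), and Klf7, a related factor, -0.78 ± 0.16 (adjusted p = 0.13, and 0.025 with normexp and quantile normalization). Over the 40 measured immediate early genes the median difference was -0.02. At an unadjusted p under 0.05, 3 were higher and 3 lower, beside 3.67% and 4.8% of all genes. The mean level of that list was between 2.73 and 3.12 in BLKS mice and between -0.42 and 0.19 in BL6 mice, whatever the diet. No isolation batch is given, and the part of islet handling in these values was not tested.

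Macrophage markers had a median diet change of 0.64 in BL6 and 0.00 in BLKS over 25 measured genes. All 25 strain differences were below 0, as against 52.8% of all genes, with a median of -0.60. Of these 5 were lower at an unadjusted p under 0.05, beside 4.8% of all genes, though none passed after adjustment. Trem2, a lipid-sensing receptor of macrophages, was at -1.38, -1.68, -1.60 and -1.60 in BL6 chow mice and -1.04, -0.77, -1.04 and -0.62 in BL6 high-fat mice. In BLKS it was at -1.15, -1.80, -1.35 and -1.60 on chow and -1.48, -1.47, -2.23 and -1.36 on high-fat diet. The BL6 diet groups were apart and the BLKS groups overlapped, at a difference of -0.85 ± 0.24 (adjusted p = 0.29), or -0.41 with normexp and quantile normalization.

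Complement genes made by macrophages were among the others: C1qa differed by -0.52 ± 0.21, C1qc by -0.87 ± 0.41 and the pan-macrophage receptor Adgre1, listed as Emr1, by -0.54 ± 0.23, or -0.27 with normexp and quantile normalization. The mean level of the list was -0.26, -0.31, -0.09 and -0.18 in BL6 chow mice, 0.25, 0.11, 0.29 and 0.83 in BL6 high-fat mice, -0.53, 0.07, -0.92 and -0.07 in BLKS chow mice and -0.87, -0.70, 0.36 and -0.25 in BLKS high-fat mice. In BL6 the diets did not overlap, and in BLKS they did. Leaving out the 5 arrays of high lymphocyte score gave a median difference of -0.44, from 0.47 in BL6 and 0.06 in BLKS, and leaving out each array in turn gave -0.71 to -0.44.

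Markers of other cells were less steady. Lymphocyte markers had a median strain difference of -0.45 over 26 measured genes, which was -1.78 without BLKS high-fat mouse 3 and 0.52 without BL6 high-fat mouse 4. For acinar markers, the digestive enzymes of exocrine tissue, the median was 0.76 over 27 genes, from 1.92 in BL6 and 2.56 in BLKS, with a range of -0.94 to 2.01 as each array was left out. Their mean level ran from -0.92 to 6.29 in BL6 chow mice and from -3.15 to 5.42 in BLKS chow mice, so the spread on chow exceeded the difference between diets. No acinar marker reached an unadjusted p under 0.05 for the strain difference, beside 8.48% of all genes. Endothelial, ductal, Schwann-cell, matrix and adipocyte markers had median differences between -0.16 and 0.14.

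**Figure D3:**
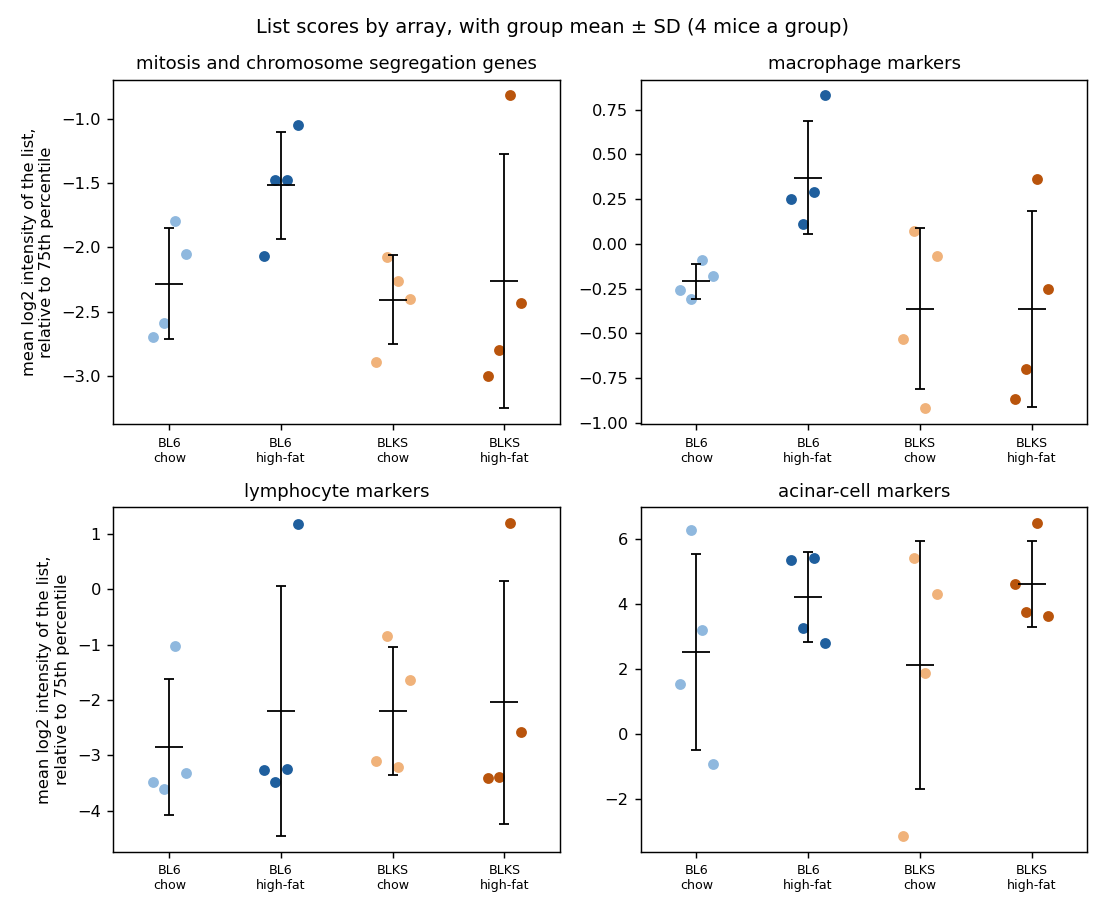
Mean level of 4 gene lists on each of the 16 arrays (points; vertical axis mean log2 intensity relative to the 75th percentile), with the mean and SD of 4 mice per group in black. Macrophage markers part by diet in BL6, and lymphocyte markers are set by single mice such as BL6 high-fat mouse 4 at 1.17 and BLKS high-fat mouse 3 at 1.19.

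No strain difference of an endocrine hormone gene passed the test. It was -0.06 ± 0.23 for Ins1, -0.15 ± 0.21 for Ins2, -0.06 ± 0.19 for Gcg, 0.05 ± 0.19 for Sst and -0.07 ± 0.65 for Ppy (SE; limma adjusted p from 0.89 to 0.99). With normexp and quantile normalization Ins1 was at 0.03, Gcg at 0.01 and Sst at 0.11. Over 33 settings Sst ran from -0.02 to 0.13 and Ppy from -0.55 to 0.40. The sign is thus not settled for Ins1, Gcg, Sst or Ppy. The extremes of the Ins1, Ins2 and Gcg levels mostly ran against the array's 75th percentile, as given above. The part of this scaling in the hormone differences was not tested, so their small values do not show that these genes were unchanged. For the 35 beta-cell identity genes the median was -0.14, and 23 of them were below 0, as against 52.8% of all genes. Only Ucn3, a peptide of mature beta cells, was at an unadjusted p under 0.05 (-0.41 ± 0.18), beside 8.48% of all genes. The transcription factors Pdx1 and Mafa differed by 0.06 ± 0.18 and 0.20 ± 0.16 and the glucose transporter gene Slc2a2 by -0.25 ± 0.19, or by 0.03 for Pdx1, 0.37 for Mafa and -0.15 for Slc2a2 with normexp and quantile normalization. Without BLKS high-fat mouse 3, whose beta-cell score of 3.47 was the lowest of the 16, the median was -0.06, and without BLKS chow mouse 1 it was -0.09. The 12 measured alpha-cell markers had 0.33 as their median, with 7 above and 5 below 0, and the median was 0.15 without BL6 high-fat mouse 1 and 0.18 without BLKS high-fat mouse 1. The transcription factor gene Irx2 had their lowest p, at 0.82 ± 0.36.

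Some genes of membrane and vesicle proteins were among those of lowest p, and none of their strain differences passed. Lrtm2, a leucine-rich repeat membrane protein, was at -1.91, -1.87, -2.14 and -2.18 in BL6 chow mice and -3.02, -3.19, -2.80 and -2.71 in BL6 high-fat mice. Levels in BLKS were -0.56, -0.48, -0.30 and -0.29 on chow and -0.24, -0.38, -0.60 and -0.45 on high-fat diet. It fell in BL6 (adjusted p = 0.0066) while the BLKS groups overlapped, and the strain difference was 0.90 ± 0.19 (adjusted p = 0.14), or 0.43 with normexp and quantile normalization. Sytl2, a Rab27 effector in granule docking, differed by 1.34 ± 0.33, or 0.45 with that setting, and on only 1 of the 4 BL6 high-fat arrays was it well above background. Rab39, a small GTPase of vesicle traffic, differed by -0.90 ± 0.21, and Best3, of the bestrophin chloride channel family, by -1.04 ± 0.24, or -0.52 and -0.59 with that setting. Abcc12, an ABC transporter, was not well above background on any BLKS chow array, so its fitted difference of 2.23 is no measured change.

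Mitochondrial genes had small values, mostly of one sign. Subunits of the respiratory chain and ATP synthase had a median strain difference of -0.14 over 53 genes, from 0.06 in BL6 and -0.08 in BLKS. Of these genes 47 were below 0, as against 52.8% of all genes, and 2 were lower at an unadjusted p under 0.05, beside 4.8% of all genes. The list's mean level was 5.33 in BL6 high-fat mice 1 and 2, whose 75th percentiles were 265 and 282.5. It was 4.85 and 4.88 in BLKS high-fat mice 3 and 4, at 386.6 and 367.9, but 5.09 in BL6 high-fat mouse 4, at 281.2. The part of this scaling in the median difference was not tested. The median difference was -0.09 without BLKS chow mouse 1, BLKS high-fat mouse 3 or BLKS high-fat mouse 4. Cox4i1, a subunit of cytochrome c oxidase, was at 6.11, 6.00, 6.09 and 6.00 in BL6 chow mice and 6.28, 6.20, 6.03 and 6.13 in BL6 high-fat mice. BLKS levels were 6.18, 6.08, 6.03 and 6.07 on chow and 5.95, 6.07, 5.91 and 5.89 on high-fat diet. The diet groups overlapped in both strains, and the difference was -0.24 ± 0.10 (adjusted p = 0.51), or -0.13 with normexp and quantile normalization. Slc25a32, which carries folate into mitochondria, differed by -0.62 ± 0.13 (adjusted p = 0.15, and 0.025 with normexp and quantile normalization). Nnt, the mitochondrial transhydrogenase that is defective in the BL6/J strain, differed by -0.24 ± 0.16 in its diet change. Other, far dimmer probes of Nnt gave 0.52 ± 0.50 and -0.67 ± 0.41. By the main probe all BLKS mice (3.48 to 3.97) lay above all BL6 mice (2.21 to 2.71).

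Heat-shock genes had a median strain difference of -0.27, and it was -0.14 without BLKS high-fat mouse 2. Of 17 genes 14 were below 0, as against 52.8% of all genes. Dnajb1, a co-chaperone of heat-shock proteins, was at 5.36, 4.25, 4.88 and 4.34 in BL6 chow mice and 5.86, 5.60, 4.77 and 5.11 in BL6 high-fat mice. In BLKS it was at 7.88, 8.05, 7.81 and 7.40 on chow and 6.12, 6.25, 7.29 and 7.10 on high-fat diet. Only the BLKS groups were apart, with the high-fat mice lower, and the strain difference was -1.72 ± 0.45 (adjusted p = 0.23). For the unfolded protein response list the median was -0.07, with Herpud1, a factor of protein degradation at the endoplasmic reticulum, at -0.40 ± 0.15, or -0.25 with normexp and quantile normalization. In cholesterol synthesis the enzyme genes Nsdhl and Dhcr7 both differed by 0.37 and Acat2 by 0.39 (0.13 with normexp and quantile normalization). Hmgcs1 differed by -0.44, with 0.14 ± 0.57 from a far dimmer probe, and the list median was 0.04.

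Among clock genes, Arntl, which encodes the activator BMAL1, had levels of 1.16, 1.09, 1.12 and 1.06 in BL6 chow mice and 0.66, 0.91, 0.62 and 0.44 in BL6 high-fat mice. In BLKS it had 1.46, 1.51, 1.35 and 1.19 on chow and 0.52, 0.47, 0.62 and 0.21 on high-fat diet. High-fat mice were lower without overlap in both strains. The fall in BLKS passed (0.92, adjusted p = 0.011), that in BL6 did not (-0.45, adjusted p = 0.39), and the test of the difference itself gave -0.48 ± 0.18 (adjusted p = 0.44). The call in one strain only is therefore not a strain difference by that test. Of the 20 clock genes, 1 was higher and 4 lower at an unadjusted p under 0.05, beside 3.67% and 4.8% of all genes. The repressor gene Cry1 differed by 0.69 (0.30 with normexp and quantile normalization), Cry2 by -0.45, the nuclear receptor gene Nr1d2 by -0.59 and the clock-controlled protease gene Usp2 by -0.70.

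Immune, secretory and metabolic lists had small medians. The strain difference was -0.19 for MHC and antigen presentation genes, -0.15 for interferon response genes and 0.06 for chemokine, cytokine and NF-kappaB response genes, beside -0.02 for all genes. Without BL6 high-fat mouse 4, whose lymphocyte score was the second highest of the 16, the MHC median was 0.10. Granule and exocytosis genes had -0.10, glucose sensing and ion channel genes -0.02 and apoptosis genes -0.03. Of them 1, 0 and 0 were at an unadjusted p under 0.05, beside 8.48% of all genes. Fatty acid synthesis genes had 0.01, fatty acid oxidation and PPAR target genes -0.11 and hypoxia and glycolysis genes -0.10. Slc2a1, the ubiquitous glucose transporter gene, differed by 0.44 ± 0.12, or 0.28 with normexp and quantile normalization, and Chac1, a glutathione-degrading enzyme of the integrated stress response, by -0.90 ± 0.28. Neither passed after adjustment.

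The same caution held for other genes called in 1 strain. Of the 28 called in either strain, 15 had the same sign in the other, and 26 had an unadjusted p under 0.05 for the strain difference, which the choice of these genes favours. Cpm, a carboxypeptidase gene, fell in BL6 by 0.63 and stood at -0.44 in BLKS, at a difference of 0.19 ± 0.15. Nfil3, a transcription factor of the clock's output, fell in BLKS by 0.73 and stood at -0.52 in BL6, at a difference of -0.21 ± 0.19. Hpgds, a prostaglandin D synthase, rose in BLKS by 0.96 and stood at 0.47 in BL6, at 0.49 ± 0.22, or 0.23 with normexp and quantile normalization. Hdac8, a class I histone deacetylase, fell by 0.58 in BLKS and stood at 0.02 in BL6. Its strain difference of -0.61 ± 0.14 did not pass either (adjusted p = 0.2, and from 0.083 to 0.38 over 33 settings). The difference was -0.40 from a second probe and -0.37 with normexp and quantile normalization.

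The unannotated transcript A030001D16Rik had a large strain difference, at -3.55 ± 0.66 (adjusted p = 0.1). It was at -4.11, -3.79, -4.33 and -6.47 in BL6 chow mice and -1.47, -0.94, -1.04 and -0.58 in BL6 high-fat mice. The BLKS values were -2.18, -1.86, -2.26 and -2.11 on chow and -1.91, -1.97, -2.30 and -1.77 on high-fat diet. It rose in BL6 (adjusted p = 0.0026), where 3 of the 4 chow arrays had it well above background, and the difference was -1.53 with normexp and quantile normalization, where it passed (adjusted p = 0.0013). Cxcl5, a neutrophil chemokine whose fitted difference was 2.59, was not well above background on any of the 8 BL6 arrays, so no strain difference was measured for it.

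**Figure D4:**
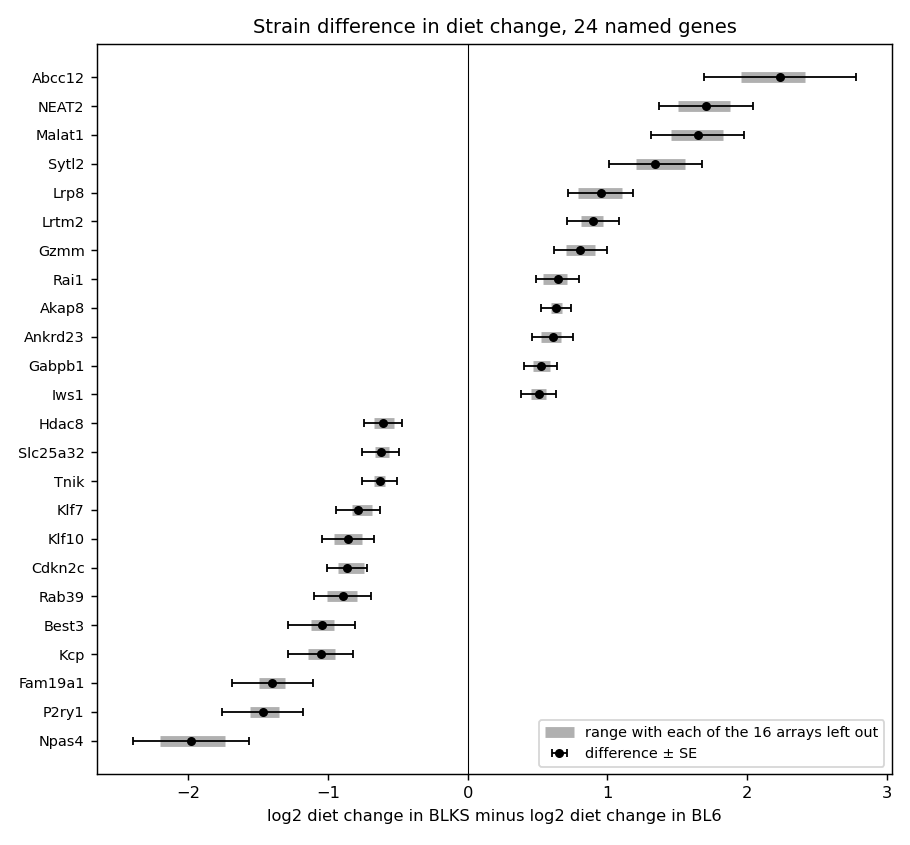
Log2 diet change in BLKS minus that in BL6 for the 24 named genes (points), with the SE as black bars and, in grey, the range as each of the 16 arrays was left out in turn. All 24 grey ranges stay on one side of 0, from -1.98 for Npas4 to 2.23 for Abcc12, whose BLKS chow level is only a bound.

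The remaining named genes had smaller values. Gabpb1, a subunit of a factor that controls mitochondrial genes, differed by 0.52 ± 0.12, with 0.06 ± 0.28 and 0.98 ± 0.82 from dimmer probes. The transcriptional regulator Rai1 differed by 0.64 ± 0.15, with 0.74 ± 0.16 from another probe and 0.99 ± 0.62 from a far dimmer one. For the elongation factor Iws1 the difference was 0.51 ± 0.12, with 0.65 ± 0.36 from a dimmer probe. Gzmm, a granzyme of cytotoxic lymphocytes, differed by 0.81 ± 0.19, beside a lymphocyte list whose median changed sign as single arrays were left out. Ankrd23, an ankyrin-repeat protein known from muscle, gave 0.61 ± 0.15, or 0.40 with normexp and quantile normalization, and 0.07 from its other probe. Their adjusted p lay between 0.2 and 0.22.

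As a description, the islets of mice given pioglitazone in the high-fat diet had mean levels of -0.27 for Cdkn2c, 3.34 for P2ry1 and -0.93 for Npas4 in BL6, beside 0.02, 4.30 and 0.87 on high-fat diet alone. In BLKS the same means were -0.94, 2.34 and 3.53, beside -1.08, 2.06 and 3.44. For Malat1 the BL6 mean was 1.18 with pioglitazone and 1.15 on high-fat diet alone. No test of these means was made here.

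Across the 35 lists, 27 had a median strain difference below 0 and 8 above, and 6 lay beyond 0.2 in either direction. Leaving out 1 array moved 34 of the 35 medians by over 1.5 times or across 0, macrophage markers being the exception, so small list medians carry no settled size or sign. Of the 886 distinct genes measured on them, 63 (7.11%) were at an unadjusted p under 0.05, beside 8.48% of all genes, and 0 passed after adjustment.

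**Figure D5:**
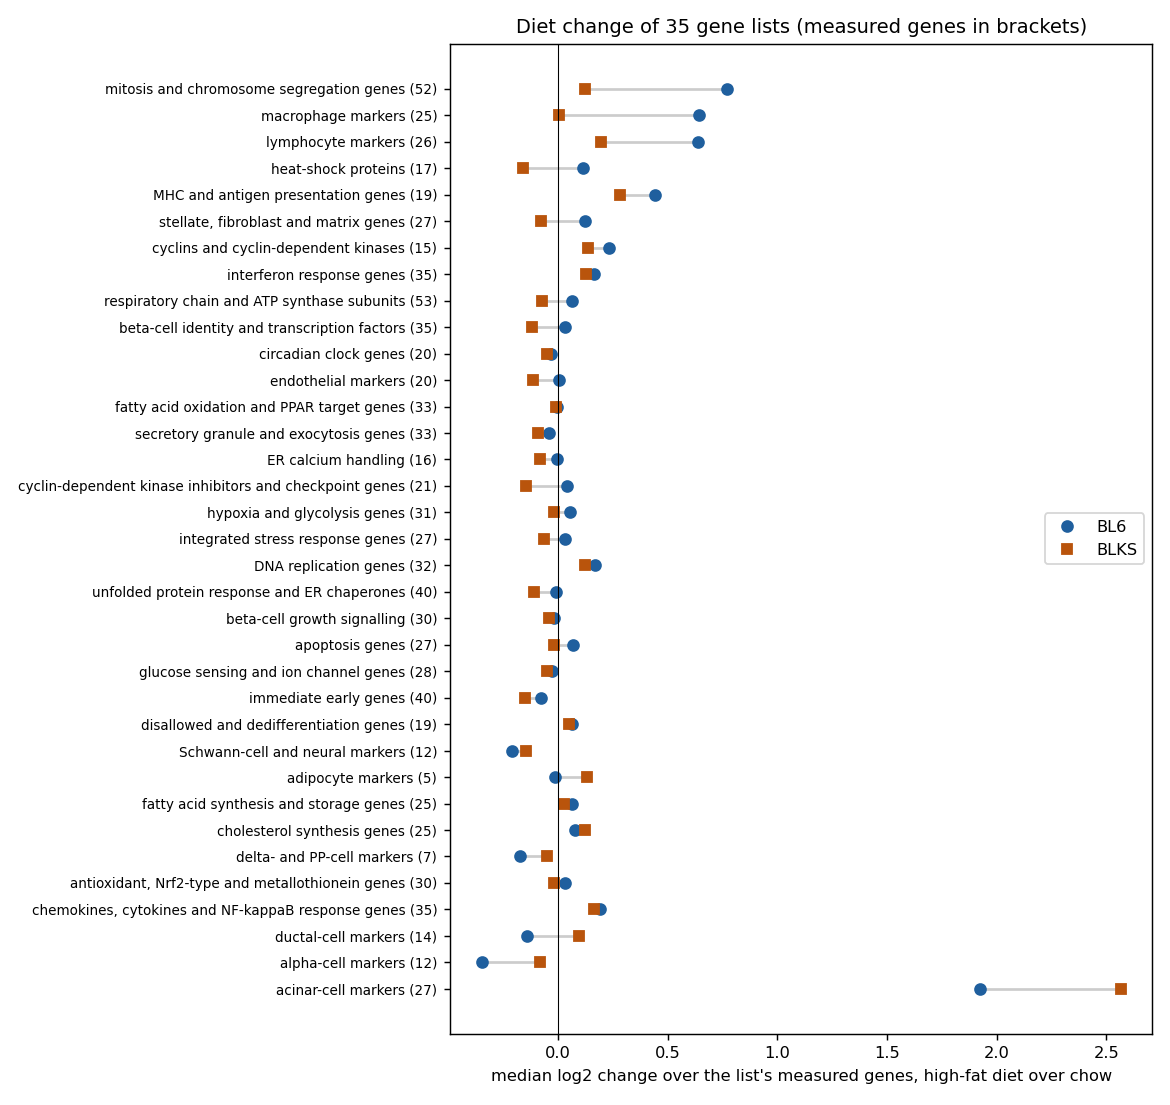
Median log2 change from chow to high-fat diet over each of 35 gene lists in BL6 (circles) and BLKS (squares), ordered from the lowest median strain difference (top) to the highest (bottom), with the number of measured genes in brackets. Mitosis genes (0.77 and 0.12) and macrophage markers (0.64 and 0.00) lie furthest apart with BL6 higher, and acinar markers (1.92 and 2.56) lie to the right in both strains.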

How the data were processed

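Islet RNA of 24 mice was measured on single-colour Agilent arrays. Per the file headers, Agilent Feature Extraction 10.7.3.1 gave each spot a background-subtracted, detrended intensity, which the authors deposited without normalization between arrays. The authors also deposited values that are a linear ratio of each processed intensity to its array's median, which served as an alternative.

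Control spots and outlier flags were left out, log2 intensities were averaged per probe, and the array's 75th percentile over 55681 probes was subtracted. The filter kept 32750 probes that were well above background on 4 or more arrays, and the brightest stood for each of 22968 gene names. Names are the array design's, of which 48.9% of probes matched a RefSeq accession of GRCm38.p6. Coordinates are those of the files (mm9). Probe sequences are those of the scanner files, and 1 probe is not reported here.

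The means of all 6 groups were estimated together in limma 3.58.1 (lmFit and eBayes, R 4.3.3, with the data.table package, version 1.17.8), with Benjamini-Hochberg adjustment of p over all genes and a threshold of 0.05. It was tested on simulated data. Errors are SE of log2 differences. The 35 lists are described by medians, without a test.

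Named genes are the 12 of lowest p in each direction, up to 4 of lowest p per list, and a set taken from earlier results. The members, lists and naming rule were chosen with earlier results of these data known. The number of arrays limits the precision.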

Additional observations from a re-analysis of the deposited data

Results flagged for a closer look

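In each of the 4 groups of 4 mice, the named genes and 7 list scores were examined for 1 mouse that lay far from the other 3, by the gap to its nearest neighbour as a share of the group's range (above Dixon's critical value for 4 samples). Of 444 groups of values, 24 (5.41%) met this, and chance alone gives about 1 in 20. No explanation was weighed.

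The lymphocyte score stood apart in both BL6 groups: at -1.02 in BL6 chow mouse 3, beside -3.60 to -3.31 in the others, and at 1.17 in BL6 high-fat mouse 4, beside -3.47 to -3.24. The beta-cell identity score of the latter mouse was 3.77, beside 3.97 to 3.98, and its Hmgcs1, an enzyme of cholesterol synthesis, was at 3.48, beside 4.00 to 4.10.

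Among BL6 chow mice, Kcp was high in mouse 2 (-2.29, others up to -2.51). In mouse 3 Cdkn2b was high (1.75, others up to 1.47), Nucb2, a secreted peptide precursor, was high (4.56, others up to 4.37), and Hrk, a pro-apoptotic gene, was low at -6.68 in a group with no array well above background for it. Ppy, the pancreatic polypeptide gene, was low in mouse 1 (9.07, others from 9.55).

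In BL6 high-fat mouse 1, Cdkn2c was low (-0.08, others from 0.04), Timp1, a protease inhibitor, was high (-2.61, others up to -4.15) and Pdk4, a kinase that restrains pyruvate oxidation, was low (0.14, others from 1.02). In mouse 2, Sytl2 was high (-3.59, others up to -4.42), Chac1, a stress-response gene, was low (4.25, others from 4.64), and Cxcl5 was lowest at -6.41, where all values were at background.

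In BLKS chow mouse 1, Sytl2 was low (-1.77, others from -1.45), and Klf7 and the metallothionein gene Mt2 were high (4.23, others up to 4.09, and 9.51, others up to 9.08). In mouse 3, the one on a slide apart, Fos was high (5.55, others up to 5.10), and Cry1, a clock repressor, and Aldh1a3, an enzyme of retinoic acid synthesis, were low (-1.61, others from -1.55, and -1.94, others from -1.32). In BLKS high-fat mice, Trem2 was low and Itpr2 high in mouse 3 (-2.23, others from -1.48, and 1.83, others up to 1.47), and Herpud1 was low in mouse 1 (6.63, others from 6.82).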

How the results depend on the processing

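The count of strain differences, 0 in the reported fit, was 11 (6 higher, 5 lower) with normexp and quantile normalization, 2 with quantile normalization, 4 (all lower) with the 16 arrays alone, and 1 without the arrays of high lymphocyte score. With the mouse number as a replicate block it was 4, all higher (Akap8 and 3 names of the Malat1 locus). The numbers pair no mice: 11 of 24 residual correlations between same-numbered mice were over 0.1, in a range of -0.44 to 0.50. Leaving out 1 array gave 0 to 1, the 1 without BLKS chow mouse 4. Every other setting gave 0. The count for diet in BL6, 10 here, was 16 with quantile normalization, 18 with median centring, 6 without the filter, 16 with the authors' table, 39 with array weights, 6 with the acinar score as covariate, 0 without the arrays of high lymphocyte score (1629 at an unadjusted p under 0.05 with limma), and 4 to 18 leaving out 1 array (6 without chow mouse 2, 4 without chow mouse 3, 18 without high-fat mouse 1, 5 without high-fat mouse 4). For diet in BLKS, 18 here, it was 66 with normexp and quantile normalization, 5 with median centring, 6 without the filter, 5 with the authors' table, 10 with the 16 arrays alone, 8 with the replicate block, 0 with the acinar covariate (1674 unadjusted), 34 with the lymphocyte covariate, 2 without the arrays of high lymphocyte score, and 2 to 23 leaving out 1 array (4, 5, 2 and 11 without chow mice 1 to 4, and 5, 6 and 2 without high-fat mice 1 to 3). The causes were not tested. No named gene passed in the reported fit. Of 3421 values for named genes under these settings, 3405 did not pass either, and 16 newly passed with the sign of the reported fit. Some values that did not pass changed sign, as for Prss1 (-0.78 to 3.95) and Ppy (-0.55 to 0.40). Slide as a random block gave 0 strain differences (correlation -0.01), and a fixed slide term could not be fitted to the BLKS groups.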
